A study of Arabidopsis thaliana with 6 samples.

Results

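The genes described here are 10 nuclear genes of Arabidopsis thaliana whose products control transcription in chloroplasts or of nuclear genes for chloroplast proteins. They were chosen by locus: the sigma factor genes SIG1 (AT1G64860), SIG2 (AT1G08540), SIG3 (AT3G53920), SIG4 (AT5G13730), SIG5 (AT5G24120) and SIG6 (AT2G36990), the polymerase gene RPOTp (AT2G24120), and the transcription factor genes GLK1 (AT2G20570), GLK2 (AT5G44190) and GNC (AT5G56860). All 10 were among the 26402 genes of the deposited table. RefSeq lists SIG1, SIG3, SIG5 and SIG6 as SIGA, SIGC, SIGE and SIGF, RPOTp as SCA3 and GLK1 as GPRI1. The series measured RNA of whole leaves from wild-type Columbia plants, with 3 samples of plants raised in 100 ppm CO2, called low CO2 here, and 3 samples raised in 380 ppm, called normal CO2. The study concerns low CO2 and how C4 photosynthesis evolved. All plants were 4 weeks old and had grown in soil with 16 h of light and 8 h of dark at 21 °C and 70% relative humidity. The sources used here do not give the hour of harvest.

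The table gave 1 column of RPKM (reads scaled to gene length and library depth) for each CO2 level and none for a single sample. Each value below is therefore the authors' value for a group, with no SD, no n and no values of single replicates beside it, and the effect of CO2 was not tested. For all 10 genes the RPKM could be turned back into whole reads, with depths of 21887516 reads at low CO2 and 25429325 at normal CO2. Ratios are RPKM at low CO2 over RPKM at normal CO2. Their 95% intervals and those of the levels cover counting error only and compare the columns, not the conditions. A gene with a mean of at least 1 RPKM was counted, and a counted gene was called when its log2 difference was at least 1 in size, which is 2-fold. The log2 difference is log2(RPKM + 1) at low CO2 minus the same at normal CO2. In bulk leaf RNA, fewer cells of a type and less RNA per cell cannot be told apart.

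The leaf label was set against marker genes. RBCS1A, a gene of the Rubisco small subunit, stood at 24998.5 RPKM at low CO2 and 10462.5 RPKM at normal CO2, a log2 difference of 1.26 that came to 0.85, under the 2-fold rule, after quantile normalization. The light-harvesting gene CAB3 was at 1165 RPKM at low CO2 and 1205 RPKM at normal CO2. RCA, the gene of Rubisco activase, was at 7210 RPKM at low CO2 and 6572 RPKM at normal CO2, a ratio of 1.10. RBCS1A and CAB3 belong to families of similar copies that can share reads. The 11 markers of flowers, roots and seeds summed to 1.75 RPKM at low CO2 and 2.45 RPKM at normal CO2. The floral gene AG, the only one with a mean of at least 1 RPKM, was at 0.786 RPKM at low CO2 and 1.92 RPKM at normal CO2. The root genes COBL9 and EXPA7 and the seed gene CRA1 were listed at 0 in both columns.

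Chloroplasts use polymerases of different origin. One has a bacterial-type core encoded in the plastid genome, and nuclear genes supply the sigma factors that direct it to promoters and the associated proteins that it needs. The other is a nuclear-encoded, phage-type enzyme, RPOTp. GLK factors, which bind DNA through a GARP domain, activate nuclear genes for chlorophyll synthesis and light harvesting, and the GATA factors GNC and CGA1 promote greening and chloroplast division downstream of cytokinin and light.

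GNC and SIG4 were the members called higher at low CO2, and SIG5 was the member called lower. That made 2 of 10 called higher, where 6.07% of 16563 counted genes were called higher, and 1 of 10 called lower, where 11.1% of counted genes were. The other 7 lay within 2-fold. The counting interval of the ratio was wholly beyond 2-fold for the same 3 genes, against 5.05% of 16095 counted genes with recovered reads on the higher side and 9.52% on the lower side. The interval of the ratio lay wholly above 1 for 8 members and wholly below 1 for SIG5 and GLK1, against 31.9% and 40.2% of those genes. More reads give a narrower interval, so these shares are not matched for read number. The median counted gene had 474 reads at low CO2 and 588 at normal CO2, fewer than most members had. The median log2 difference of the 10 was 0.55, beside -0.06 for all counted genes. The sign of each member's difference was the same under every pseudocount and scaling tried.

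**Figure D1:**
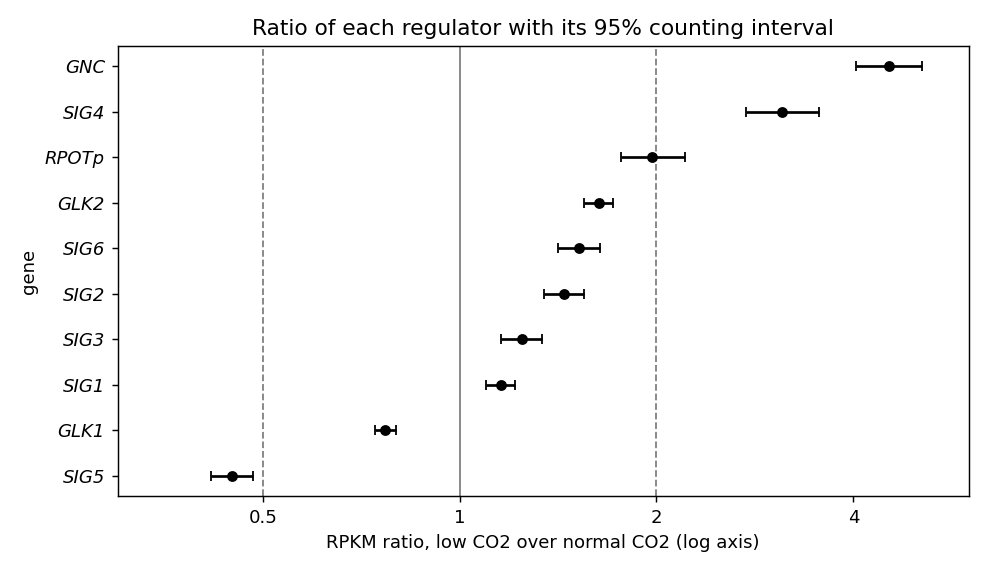
RPKM ratio of each gene, low CO2 over normal CO2, on a log axis, with the 95% counting interval as a bar, a solid line at 1 and dashed lines at 2-fold either way. GNC (4.53) and SIG4 (3.11) lie wholly above 2, RPOTp (1.97) has an interval that crosses 2, and SIG5 (0.449) lies wholly below 0.5.

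The promoters of the 3 called members are shown because their log2 differences were the largest in size among the 10. Each window is the 300 bases before the annotated start, read 5′ to 3′ on the gene's own strand from RefSeq's TAIR10.1 assembly. No other annotated gene reached into these windows. The window of SIG4 lies at chr5:4430902-4431201, that of SIG5 at chr5:8160344-8160643 and that of GNC at chr5:22991531-22991830, each for a gene on the minus strand. The sources used here do not name the authors' build, and no position comes from the deposited table. Capitals mark matches to a TATA box (TATAAA) and, in SIG4, to the CCA1 binding site (AAAAATCT), on either strand.
SIG4: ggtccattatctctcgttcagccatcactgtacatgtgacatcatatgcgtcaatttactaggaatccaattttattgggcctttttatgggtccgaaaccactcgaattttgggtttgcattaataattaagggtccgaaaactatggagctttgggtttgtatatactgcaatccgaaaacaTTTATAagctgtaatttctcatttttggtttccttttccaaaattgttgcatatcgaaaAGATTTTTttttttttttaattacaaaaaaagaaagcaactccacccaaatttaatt
SIG5: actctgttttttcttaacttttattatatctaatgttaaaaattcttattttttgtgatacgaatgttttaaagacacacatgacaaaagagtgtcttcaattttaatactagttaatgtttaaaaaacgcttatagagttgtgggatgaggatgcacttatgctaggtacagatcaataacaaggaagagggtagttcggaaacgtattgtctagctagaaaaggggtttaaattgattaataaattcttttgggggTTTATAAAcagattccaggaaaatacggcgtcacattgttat
GNC: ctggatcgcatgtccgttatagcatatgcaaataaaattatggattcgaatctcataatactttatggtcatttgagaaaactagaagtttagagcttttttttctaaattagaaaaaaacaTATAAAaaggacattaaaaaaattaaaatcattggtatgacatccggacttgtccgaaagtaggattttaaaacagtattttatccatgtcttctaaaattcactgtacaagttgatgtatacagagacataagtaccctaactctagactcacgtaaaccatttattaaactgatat

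TATAAA or its reverse complement was found in the windows of 8 of the 10 genes (all but SIG2 and SIG6). It was found in 53.5% of 25791 windows, those of nuclear genes of the deposited table that RefSeq annotates. Neighbouring TATAAA matches overlap in SIG5, where the letters run on both strands. The CCA1 site was found in SIG4 and GLK2 and in 8.06% of all windows. The evening element (AAAATATCT), a motif of clock-controlled genes, was found in SIG3 alone of the 10 and in 2.88% of windows. The G-box (CACGTG), bound by bZIP and bHLH factors such as HY5 and the PIFs, was found in none of the 10 windows and in 7.18% of all. The I-box (GATAAG), which contains a GATA core, was found in SIG3 and GLK1 and in 14.4% of windows, and CCAATC, a motif reported near GLK targets, in SIG2 and in 12.1%. Another annotated gene reached into each window of SIG1, SIG2, SIG3 and SIG6, so matches there may lie inside that neighbour. The 3 called members thus shared TATAAA, which over 50% of windows hold, and no other motif of this search.

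The sigma factor genes went both ways. SIG4, which in Arabidopsis serves the plastid gene ndhF of the NADH dehydrogenase-like complex, was at 32.6 RPKM (30.5 to 34.8) at low CO2 and 10.5 RPKM (9.39 to 11.7) at normal CO2. The values rest on 898 reads at low CO2 and 335 at normal CO2. The ratio was 3.11 (2.74 to 3.54), and 2.57% of counted genes had a larger log2 difference. SIG4 was the scarcest sigma factor gene at normal CO2, and at low CO2 its interval overlapped that of SIG5, the lowest there.

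Of the 1260 coding bases of SIG4, 164 lie inside the annotated AT5G13720, a gene on the opposite strand. The use of strand in counting is not stated, so reads there cannot be told apart. AT5G13720 stood at 86.9 RPKM at low CO2 and 82.4 RPKM at normal CO2, a ratio of 1.05 (0.983 to 1.13), an interval that included 1. It had 1495 reads at low CO2 and 1647 at normal CO2, more than SIG4 in each column. Its part in the reads of SIG4 was not tested and could be large at normal CO2, where SIG4 had 335. The level, share, ratio and intervals of SIG4 carry that limit. The other 9 genes had no coding base inside another annotated gene, and none of the 10 shared a coding stretch of 50 bases with another locus.

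SIG5, which directs the polymerase to the blue-light responsive promoter of psbD and is known to respond to stress, light quality and the clock, was the opposite case. It was at 29.7 RPKM (27.9 to 31.6) at low CO2 and 66.2 RPKM (63.7 to 68.8) at normal CO2, from 1009 and 2611 reads. It was thus 2.23-fold lower at low CO2 (2.07 to 2.40), with a log2 difference of -1.13, and 9.42% of counted genes had a more negative one. The lower edge of its fold lay close to the 2-fold rule, and its log2 difference ran from -1.18 to -1.04 over the alternatives. The locus of psbD was not analysed here.

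The other sigma factor genes were higher at low CO2 by less than 2-fold. SIG6, which acts broadly on plastid photosynthesis genes in young seedlings, was at 45.5 RPKM at low CO2 and 29.9 RPKM at normal CO2, a ratio of 1.52 (1.41 to 1.64). SIG2, needed for several plastid tRNAs including the one that starts tetrapyrrole synthesis, was at 47.1 RPKM at low CO2 and 32.6 RPKM at normal CO2, a ratio of 1.44 (1.35 to 1.55). SIG3, which serves psbN, was at 40.9 RPKM at low CO2 and 32.9 RPKM at normal CO2, a ratio of 1.24 (1.16 to 1.34). SIG1, a factor linked to photosystem gene promoters and the redox state of electron transport, was the most abundant at both levels. It stood at 91.3 RPKM at low CO2 and 78.9 RPKM at normal CO2, a ratio of 1.16 (1.10 to 1.22).

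The 6 sigma factor genes summed to 287 RPKM at low CO2 and 251 RPKM at normal CO2, a ratio of 1.14, so their make-up differed more than their sum. RPKM is per length, so shares of the summed level can be set side by side. SIG5 made up 10.3% of the sum at low CO2 and 26.4% at normal CO2. SIG4 made up 11.4% at low CO2 and 4.18% at normal CO2. SIG5 was thus the second most abundant sigma factor gene at normal CO2 and had the lowest level at low CO2, where its interval overlapped that of SIG4. Of recovered reads, which are not per length, SIG5 had a larger share than SIG4 in both columns. The RPKM of SIG5 was 0.911 times that of SIG4 at low CO2 and 6.32 times at normal CO2. The other shares moved less. SIG1 held 31.8% at low CO2 and 31.4% at normal CO2, the steadiest share of the 6. SIG2 held 16.4% and 13.0%, SIG3 14.3% and 13.1%, and SIG6 15.8% and 11.9% at low and normal CO2.

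**Figure D2:**
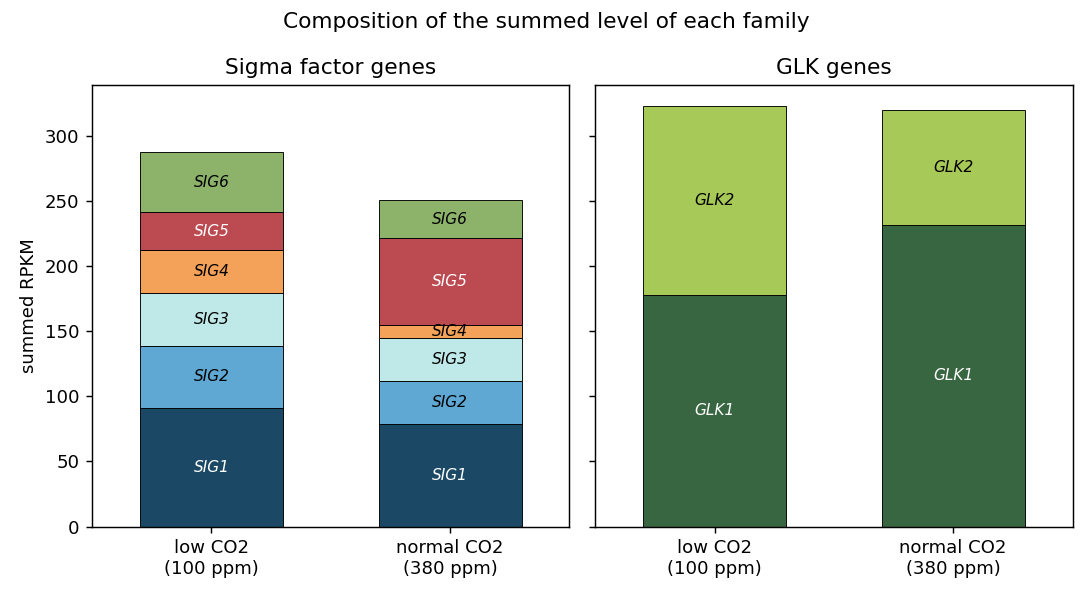
Stacked RPKM of the 6 sigma factor genes (left) and of GLK1 and GLK2 (right) in the low CO2 and normal CO2 columns, without replicates. The SIG5 segment is thinner and the SIG4 segment thicker at low CO2, and the GLK stacks reach nearly the same height (323 RPKM in the low CO2 column and 320.1 RPKM in the normal one) with a different split.

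RPOTp, the phage-type polymerase of plastids, which reads housekeeping genes including those of the core of the bacterial-type enzyme, was the scarcest of the 10 genes in both columns. It was at 14.3 RPKM (13.3 to 15.3) at low CO2 and 7.25 RPKM (6.63 to 7.92) at normal CO2, from 840 and 495 reads. The ratio of 1.97 (1.76 to 2.21) lay just within 2-fold, and the log2 difference of 0.89 came to 1.01 after quantile normalization. The other phage-type enzymes had no called gene. RPOTm, the mitochondrial enzyme, was at 14.3 RPKM at low CO2 and 7.39 RPKM at normal CO2, a ratio of 1.93 (1.74 to 2.15). RPOTmp, which is targeted to both organelles, was at 6.18 RPKM at low CO2 and 5.42 RPKM at normal CO2, and its ratio of 1.14 had an interval that included 1 (0.992 to 1.31).

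GLK1 and GLK2, a pair of partly redundant factors, differed in opposite directions and both stayed within 2-fold. GLK1 was the most abundant of the 10 genes, at 178 RPKM (173 to 183) at low CO2 and 231 RPKM (226 to 237) at normal CO2. Its ratio was 0.770 (0.742 to 0.798), which is 1.30-fold lower at low CO2. GLK2 was at 144.7 RPKM (140.1 to 149) at low CO2 and 88.7 RPKM (85.3 to 92.2) at normal CO2, a ratio of 1.63 (1.55 to 1.72). The 2 together reached 323 RPKM at low CO2 and 320.1 RPKM at normal CO2, a ratio of 1.01. GLK1 thus exceeded GLK2 1.23-fold at low CO2 and 2.61-fold at normal CO2, and GLK2 made up 44.8% of the pair at low CO2 and 27.7% at normal CO2.

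GNC, a GATA factor first described as inducible by nitrate, had the largest ratio of the 10. It was at 53.6 RPKM (50.8 to 56.5) at low CO2 and 11.8 RPKM (10.6 to 13.1) at normal CO2, from 1400 and 359 reads. The ratio was 4.53 (4.03 to 5.10), with a log2 difference of 2.09, and 1.33% of counted genes had a larger one. In the order of levels GNC had rank 4 of the 10 at low CO2, above SIG2, and rank 8 at normal CO2, where its interval overlapped that of SIG4.

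SIG5 had rank 9 at low CO2 and rank 4 at normal CO2. GLK1, GLK2 and SIG1 held the top of the order and RPOTp the bottom in both columns. At low CO2 the neighbours SIG2 and SIG6, and SIG4 and SIG5, had overlapping counting intervals. At normal CO2 those of SIG3 and SIG2, SIG2 and SIG6, and GNC and SIG4 overlapped. The spread between samples is not known, so neighbours whose intervals part cannot be said to differ beyond it.

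**Figure D3:**
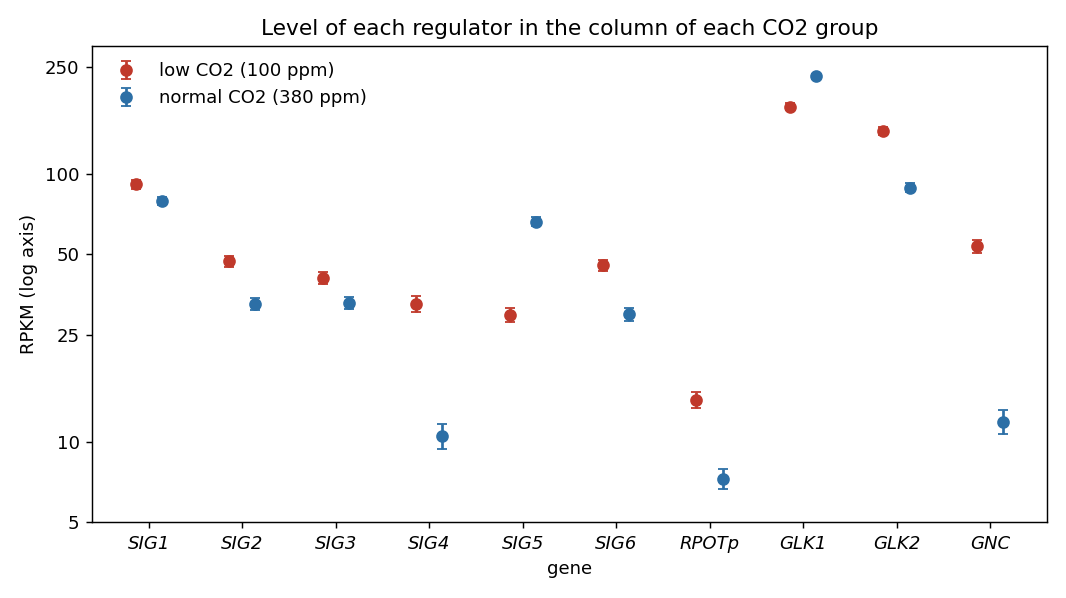
RPKM of each gene on a log axis in the low CO2 column (red, left of each pair) and the normal CO2 column (blue), with 95% counting intervals. GNC, SIG4 and SIG5 have the most widely parted points, and GLK1 and SIG5 are the genes whose low CO2 point lies below the normal CO2 point.

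Set among all 16563 counted genes, most members lay to the right of the centre. Larger log2 differences were held by 7.32% of genes for RPOTp, 10.7% for GLK2, 13.4% for SIG6 and 15.8% for SIG2. For SIG3 and SIG1 the shares were 24.9% and 30.7%, and 28.3% of genes had a more negative difference than GLK1. Their levels spanned much of the range, since 5.22% of counted genes had a higher mean RPKM than GLK1 and 67.2% a higher one than RPOTp.

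**Figure D4:**
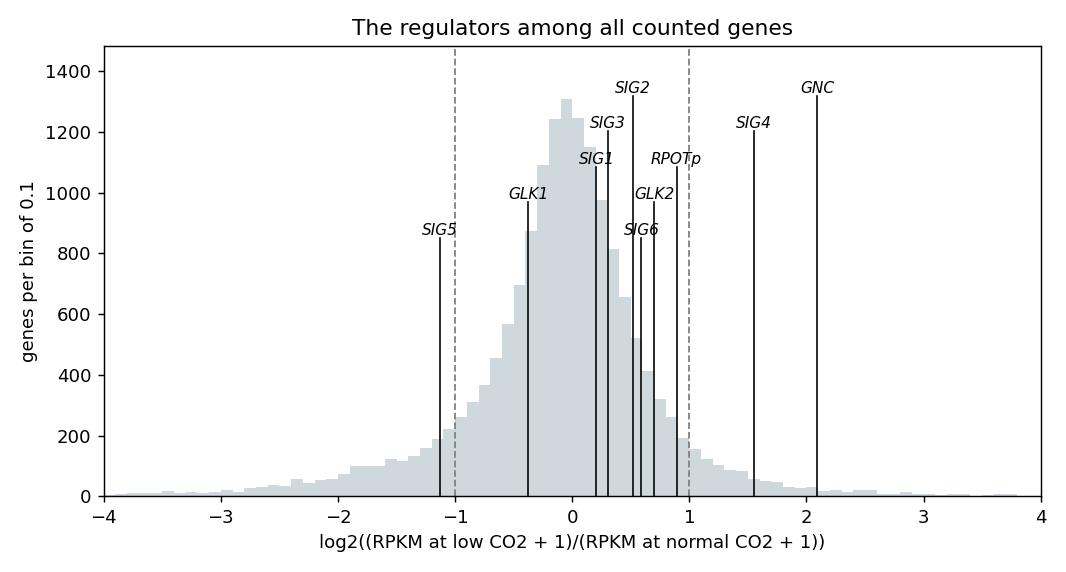
Number of counted genes per bin of 0.1 in the log2 difference, low CO2 over normal CO2, with a line at the value of each of the 10 genes and dashed lines at 2-fold. The axis leaves out 74 genes beyond 4 in size, SIG5 stands left of the lower dashed line at -1.13, and SIG4 (1.55) and GNC (2.09) stand right of the upper one.

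Genes of the same families as the members, or that act with them, were described by lists given by locus. The counts stand beside 6.07% of all counted genes called higher, 11.1% called lower and an overall median of -0.06, and nothing particular to a list is read from them. In the B-class GATA family, GNC included, 6 of 7 genes were counted, 3 were called higher and none lower, and the median log2 difference was 0.89. That median was 0.31 without a filter on low values and 1.46 with a minimum mean of 5 RPKM. Without GNC, 2 of 5 counted genes were called higher, with a median of 0.31. CGA1, the closest relative of GNC, was at 37.1 RPKM at low CO2 and 2.23 RPKM at normal CO2, a ratio of 16.6 (12.8 to 21.9) that rests on 60 reads at normal CO2. GATA17L was at 13.7 RPKM at low CO2 and 4.33 RPKM at normal CO2, a ratio of 3.16 (2.37 to 4.27). GNC and CGA1 summed to 90.6 RPKM at low CO2 and 14.1 RPKM at normal CO2. The other counted genes of the family lay within 2-fold.

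The proteins that bind or modify sigma factors formed a list of 5, all counted, with 2 called lower and none higher. SIB1, a VQ protein that binds SIG1 and is known from defence, was at 36.4 RPKM at low CO2 and 264 RPKM at normal CO2, 7.25-fold lower (6.49 to 8.10). Its relative SIB2 was at 47.5 RPKM at low CO2 and 110.6 RPKM at normal CO2, 2.33-fold lower (2.08 to 2.60). The sensor kinase gene CSK, which acts on SIG1, had a ratio of 0.914 (0.861 to 0.969). cpCK2, the plastid casein kinase that phosphorylates sigma factors, had a ratio of 1.04 (0.980 to 1.10), and DG1, whose protein binds SIG6, 1.27 (1.12 to 1.44). SIG1 itself, the partner of SIB1 and CSK, lay at 1.16.

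Among the proteins associated with the bacterial-type polymerase, 14 of 15 listed genes were analysed and counted. Of these 2 were called higher and none lower, and the median log2 difference was 0.38. PAP8 (AT1G21600), here the polymerase-associated protein pTAC6, was at 94.9 RPKM at low CO2 and 26.9 RPKM at normal CO2, a ratio of 3.53 (3.23 to 3.86). PAP6 (AT3G54090), the fructokinase-like protein FLN1, was at 13.4 RPKM at low CO2 and 5.90 RPKM at normal CO2. Its ratio of 2.27 had an interval that crossed 2 (1.92 to 2.69), and with a pseudocount of 5 it was not called (0.75 on the log2 scale).

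Proteins of the mTERF family act in organelle transcription and RNA maturation. Of 6 listed mTERF genes, not all shown to act in plastids, 5 were analysed and counted. Of these 2 were called higher and none lower, with a median log2 difference of 0.87 (0.52 with a pseudocount of 5). mTERF6 had a ratio of 2.37 (2.09 to 2.70) and mTERF9 one of 2.29 (1.92 to 2.74), and neither was called with a pseudocount of 5 (0.99 and 0.72 on the log2 scale). Of 19 plastid-genome loci that these enzymes read, 11 were in the table and 9 were counted. All 9 lay above 0, from 0.12 to 1.21 with a median of 0.55, and 1 was called, ATCG00490 at 1376 RPKM at low CO2 and 593 RPKM at normal CO2, a ratio of 2.32. Among loci read by the nuclear-encoded enzyme, ATCG00670 was at 59.4 RPKM at low CO2 and 40.3 RPKM at normal CO2, and ATCG00500 at 7.83 RPKM at low CO2 and 4.89 RPKM at normal CO2. No reads were recovered for these loci, the reference does not annotate their identifiers, and the library kit selects polyadenylated RNA, which plastid transcripts mostly are not.

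Chlorophyll synthesis and light-harvesting genes of the kind that GLK factors activate formed a list of 17, all counted. Of these 16 lay within 2-fold, as did 13723 of all 16563 counted genes, 1 was called higher and none lower. The share called higher was near the 6.07% of all counted genes. The median log2 difference was 0.30 (0.13 after quantile normalization). The called gene was PORB, a protochlorophyllide oxidoreductase, at 487 RPKM at low CO2 and 126.5 RPKM at normal CO2, a ratio of 3.85 (3.71 to 3.99). The others ran in both directions, 10 above 0 and 6 below.

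The list of light and plastid signalling regulators had 1 of 14 genes called higher and 2 lower, shares near the 6.07% and 11.1% of all counted genes. The median log2 difference was -0.28 and came to -0.16 after quantile normalization. HYH, the close homologue of HY5, was at 69.0 RPKM at low CO2 and 23.9 RPKM at normal CO2, a ratio of 2.89 (2.46 to 3.39). PIF4, a phytochrome-interacting bHLH factor, was at 18.1 RPKM at low CO2 and 112.9 RPKM at normal CO2, 6.25-fold lower (5.70 to 6.87). ORE1, a NAC factor of senescence whose protein binds and inhibits GLKs, was at 33.9 RPKM at low CO2 and 133.9 RPKM at normal CO2, 3.95-fold lower (3.63 to 4.31).

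Clock genes also differed between the columns, and transcripts such as SIG5 are under clock control. Of 12 clock genes, all counted, 6 were called higher and 1 lower, with a median log2 difference of 1.20. A minimum mean of 5 RPKM left out PRR9, the one called lower, and gave a median of 1.90. PRR5, a pseudo-response regulator, was at 48.0 RPKM at low CO2 and 1.30 RPKM at normal CO2. ELF4 was at 60.0 RPKM at low CO2 and 5.08 RPKM at normal CO2, and its evening complex partner LUX at 16.5 RPKM at low CO2 and 1.79 RPKM at normal CO2. These genes normally peak late in the day. PRR3 was at 12.4 RPKM at low CO2 and 1.14 RPKM at normal CO2. PRR9, chosen once its values had been seen, was at 0.781 RPKM at low CO2 and 6.58 RPKM at normal CO2. Of the 12 log2 differences, 8 lay above 0 and 4 below. GI, CCA1 and LHY, also chosen once their values had been seen, lay within 2-fold. GI was at 4.36 RPKM at low CO2 and 7.51 RPKM at normal CO2, a ratio of 0.581 (0.508 to 0.663). CCA1 was at 216 RPKM at low CO2 and 152 RPKM at normal CO2. LHY was at 175 RPKM at low CO2 and 199 RPKM at normal CO2. The part of clock phase at harvest in the values of the 10 regulators was not tested.

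**Figure D5:**
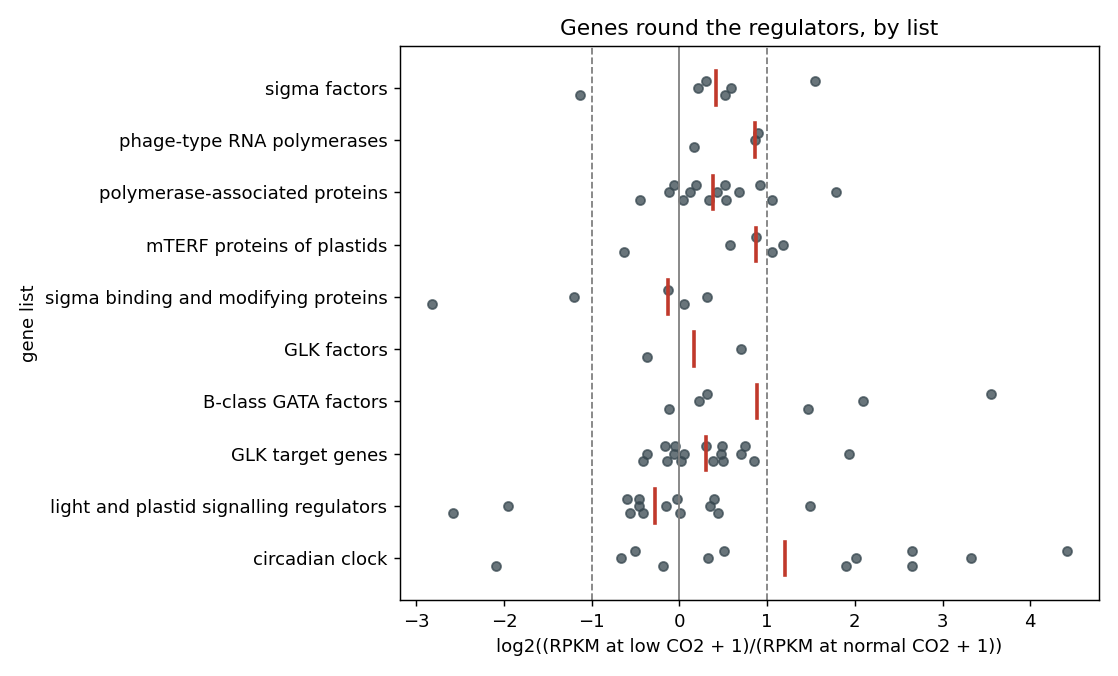
Log2 difference, low CO2 over normal CO2, of every counted gene of 10 lists, 1 point per gene, with the list median as a red bar and dashed lines at 2-fold. The clock list has the widest spread and the highest median (1.20), and SIB1 and PIF4 are the points farthest left.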

How the data were processed

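The values used are RPKM, computed and deposited by the authors in 1 column per CO2 level, for RNA libraries made with the Illumina TruSeq RNA kit per the labels' protocols. FastQC, TopHat and Cufflinks are named in the submitters' processing notes. The sources used here give no versions, genome build, annotation, use of strand or pooling. Whether a column pools 3 libraries or holds 1 is not stated, so a limma test planned for single samples could not be run.

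Whole reads were recovered with RefSeq (TAIR10.1) coding lengths less the stop codon: 20247 of 21010 genes above 0 (96.4%) came out whole in both columns within 0.0001 reads, against 1.47% with the stop codon kept. These reads made up 95.1% of the depth at low CO2 and 95.5% at normal CO2. Ratio intervals are exact Clopper-Pearson intervals of the share of a gene's reads that came from the low CO2 column, scaled by the depths, and intervals of levels are exact Poisson ones. At 1 kb of coding length 1 read was worth 0.0457 RPKM at low CO2 and 0.0393 RPKM at normal CO2. The steps were also run on simulated Poisson counts, turned into RPKM with the same formula and coding lengths. The simulation held no spread between samples, so it says nothing about that spread.

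Python 3.11.15, pandas 2.3.3, numpy 2.4.6 and scipy 1.17.1 were used. The members, the 14 lists and the named genes were chosen with earlier results of these data known. Named were the members, from each list up to 4 called genes ranked by difference (or its 2 most abundant genes), and all genes of lists of 5 or fewer. COBL9, EXPA7 and CRA1 were named for standing at 0, and PRR9, GI, CCA1, LHY and AT5G13720 after their values were seen. Alternatives were other pseudocounts, filters and scalings. No protein sequences were used here.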

Additional observations from a re-analysis of the deposited data

How the results depend on the processing

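All 10 members kept their sign under pseudocounts of 0.1 and 5, median scaling, quantile normalization and rescaling to nuclear genes, and GNC, SIG4 and SIG5 stayed past 2-fold under each. With a pseudocount of 5, GNC came to 1.80 and SIG4 to 1.28 on the log2 scale. Quantile normalization raised the median of all genes by 0.11 and added RPOTp to the members called higher, making 3. A 1.5-fold rule called 5 members higher, against 13.5% of all genes, and 1 lower, against 20.0%. Over all genes the pseudocount of 5 called 674 higher and 1175 lower, against 1006 and 1834 with a pseudocount of 1, and the 1.5-fold rule called 2244 and 3312. Taken as shares of recovered reads, which are not per length, at low and normal CO2 SIG1 held 30.5% and 30.0% of the sigma factor reads, SIG2 18.0% and 14.1%, SIG3 15.6% and 14.2%, SIG4 9.11% and 3.33%, SIG5 10.2% and 25.9%, and SIG6 16.6% and 12.4%. No paired analysis was possible because the columns carry no replicate numbers, and no replicate could be left out for the same reason.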
